A study of Mus musculus with 219 samples.

Results

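The mitochondrial ribosomal protein genes are taken here as every symbol made of Mrpl or Mrps, a number and at most 1 further letter in the deposited gene table, which gave 78 genes of 32285. Of these, 49 are named Mrpl for the large subunit and 29 Mrps for the small subunit, and they lie on 17 chromosomes, with 11 on chromosome 11. By position in the known structure the members split differently from their names. The products of Mrps30 and Mrps18a sit in the large subunit, and Mrps36 encodes a subunit of the 2-oxoglutarate dehydrogenase complex, so 51 members belong to the large subunit, 26 to the small subunit and 1 to neither.

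The samples were mouse embryos of the cross B6C3F1xCD1, made by intracytoplasmic sperm injection (ICSI) of a CD1 sperm head into a B6C3F1 oocyte. The sperm was placed opposite the meiotic spindle (contralateral, at the vegetal pole), beside it (ipsilateral, "isolateral" in the labels, at the animal pole) or at the equator between them, and no group without ICSI was sequenced. Sister blastomeres of 2-cell embryos were lysed singly, or were cultured singly into twin blastocysts, and embryos that were never bisected gave intact blastocysts. All embryos were cultured in vitro in KSOM medium with amino acids. The 2-cell set held 55 sister pairs, 21 contralateral, 21 ipsilateral and 13 equatorial, and the blastocysts were 19 twin pairs (6, 7 and 6 in the same order) and 31 intact embryos (11, 8 and 12). The counts of both sisters, or of both twins, were added, so that the embryo is the replicate. Nothing in the labels ties embryos to separate sessions or females, and p-values therefore measure the spread between these embryos.

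Mitochondria carry their own ribosomes, which translate the 13 proteins encoded by mitochondrial DNA, all of them subunits of the respiratory chain and ATP synthase. The ribosomal RNAs of the mitoribosome are encoded in mitochondrial DNA, while all its proteins are encoded in the nucleus and imported. Many of these proteins descend from the bacterial ribosome, and others were added in mitochondria. The oocyte supplies the mitochondria of the preimplantation embryo, and mitochondrial DNA is not copied in appreciable amounts before the blastocyst. Of the members, 30 large-subunit and 16 small-subunit proteins have a bacterial counterpart, and 21 and 10 are particular to mitochondria.

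Added 2-cell embryos held 1255481 to 3976094 counts (median 2683481), twin pairs 1676976 to 3095134 (median 2200256) and intact blastocysts 234099 to 1254428 (median 705837). Equatorial 2-cell embryos had fewer detected genes, 13491 ± 681 (SD, n = 13), than contralateral, 14083 ± 537 (n = 21), or ipsilateral embryos, 14132 ± 601 (n = 21). Neither totals nor detected genes overlapped between added twins and intact blastocysts, whose highest total was 1254428 and highest number of detected genes 12766, against a lowest of 1676976 and 13495 in twins. The oocyte list (Gdf9, Bmp15, Zp3, Oosp1, Nlrp5, Dppa3) summed to 3174 to 4870 CPM (counts scaled to a common library total) in 2-cell embryos, and the trophectoderm list (Cdx2, Gata3, Krt8, Krt18, Tfap2c) to 2768 to 3361 CPM in twins and 2417 to 5706 CPM in intact blastocysts, so the stages carried the markers of their labels. The cumulus cell list (Has2, Ptx3, Tnfaip6, Fshr, Inhba) had a median of 6.5 CPM in 2-cell embryos, and its median in blastocysts was 0.

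NRF1 and the ETS factor GABP are known nuclear regulators of mitochondrial genes, and their core motifs were searched on both strands from 250 bases before to 50 after each RefSeq start site (GRCm38.p6). RefSeq promoters were matched for 69 of the 78 members, 75 start sites in all. The NRF1 core GCGCATGCG stood in 7 of the 75 windows (9.33%) and in 575 of 32851 windows of all genes (1.75%). The ETS motif CCGGAAGT stood in 12 (16%) and in 1277 (3.89%), and no member window held both, against 65 windows of all genes (0.198%). Member windows had a median of 58.7% G and C, against 52.7% in all windows, and the motif shares were not set against windows of equal base composition. The 100 bases before the start are shown for a pair of members with each motif, Mrpl17 and Mrpl22 with the NRF1 core and Mrpl3 and Mrps26 with the ETS motif, all of them members described in the comparisons that follow. Capitals mark the motif, and in Mrps26 it lies on the opposite strand and reads as its reverse complement.
Mrpl17 (chr7:105811088-105811187, minus strand): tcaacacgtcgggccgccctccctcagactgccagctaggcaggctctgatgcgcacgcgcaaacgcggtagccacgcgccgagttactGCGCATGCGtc
Mrpl22 (chr11:58171564-58171663, plus strand): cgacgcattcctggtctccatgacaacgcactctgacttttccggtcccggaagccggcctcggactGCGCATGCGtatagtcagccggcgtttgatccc
Mrpl3 (chr9:105053168-105053267, plus strand): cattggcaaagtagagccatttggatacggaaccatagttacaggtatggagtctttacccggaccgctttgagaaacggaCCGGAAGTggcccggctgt
Mrps26 (chr2:130563657-130563756, plus strand): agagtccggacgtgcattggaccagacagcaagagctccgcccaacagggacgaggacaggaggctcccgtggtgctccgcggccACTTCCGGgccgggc
A match is a description of the letters only. Among the other members, the NRF1 core stood before Mrpl9, Mrpl10, Mrpl32, Mrpl39 and Mrps18b. The ETS motif stood before Mrpl18, Mrpl27, Mrpl43, Mrpl51, Mrps18c, Mrps22 and Mrps27 and before an alternative start of Mrpl48. It lay across the start of Mrpl33 and just after the start of Mrpl52.

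Levels of different genes are compared as TPM, which divides each count by exonic length before scaling to the library. At the 2-cell stage the median member stood at 48.4 TPM, and 58 of the 78 were above 17.8 TPM, the median of all 13440 genes with a median above 0. The transcripts were unequal at this stage. Mrpl53 was the highest, at a median of 536 TPM, followed by Mrpl18 at 435 TPM, Mrpl34 at 422 TPM, Mrps21 at 394 TPM and Mrps33 at 368 TPM. At the other end, Mrpl52 had a median of 0, and Mrpl33 stood at 0.652 TPM, Mrpl19 at 2.37 TPM, Mrps35 at 2.50 TPM and Mrps31 at 2.82 TPM. In 37 members at least 1 of the 55 embryos had no count. Transcripts of proteins that join the same particle thus stood at very different levels.

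In blastocysts the spread was narrower, and the median of each of the 78 members exceeded the median of expressed genes, 17 TPM in twins and 21.7 TPM in intact blastocysts. In whole blastocysts, fewer cells of a type and less RNA per cell cannot be told apart. The median member stood at 168 TPM in twins, where members ran from 40.7 (Mrpl3) to 882 TPM (Mrpl54), and at 124.5 TPM in intact blastocysts, from 23 (Mrpl48) to 695 TPM (Mrpl54). After Mrpl54, the highest in twins were Mrpl18 (724 TPM), Mrpl12 (720 TPM), which forms the stalk of the large subunit, Mrpl28 (656 TPM) and Mrpl2 (620 TPM), a core protein near the peptidyl transferase centre. In intact blastocysts they were Mrps18c (525 TPM), Mrps21 (525 TPM), Mrps28 (516 TPM) and Mrpl12 (477 TPM). The lowest in twins after Mrpl3 were Mrpl48 (40.9 TPM), Mrps31 (41.9 TPM), Mrpl32 (45.1 TPM) and Mrps30 (45.4 TPM), and in intact blastocysts Mrps25 (23.1 TPM), Mrpl3 (24.9 TPM), Mrps34 (28.6 TPM) and Mrps30 (29.7 TPM) followed Mrpl48. Exonic length is the union of all annotated exons, so a gene with a long rarely used exon reads low on this scale. The median cytosolic ribosomal protein gene stood higher at each stage, at 180, 636 and 935 TPM in 2-cell embryos, twins and intact blastocysts.

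Added over all 78 members, the transcripts made up 4071 CPM of the median 2-cell embryo (2679 to 5350), 9229 CPM of the median intact blastocyst (5481 to 14484) and 13363 CPM of the median twin pair (12349 to 15268). All 31 intact blastocysts lay above the highest 2-cell embryo, and 30 of them below the lowest twin pair. The exception was a contralateral intact blastocyst at 14484 CPM, and the next highest stood at 11515 CPM. In 2-cell embryos the median was 4348 CPM after contralateral ICSI (2799 to 5350), 4081 CPM after ipsilateral (3625 to 4996) and 3547 CPM after equatorial ICSI (2679 to 4527), and the ranges of the 3 sites overlapped. On plate 1 the medians were 4329, 4092 and 3478 CPM in that order. The 2 equatorial embryos on plate 2 stood at 4376 and 4527 CPM, within the 3827 to 4644 CPM of the 3 contralateral embryos there. The 8 ipsilateral embryos on plate 2 ran from 3625 to 4763 CPM, and only those at 4558 and 4763 CPM lay above both equatorial ones.

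**Figure D1:**
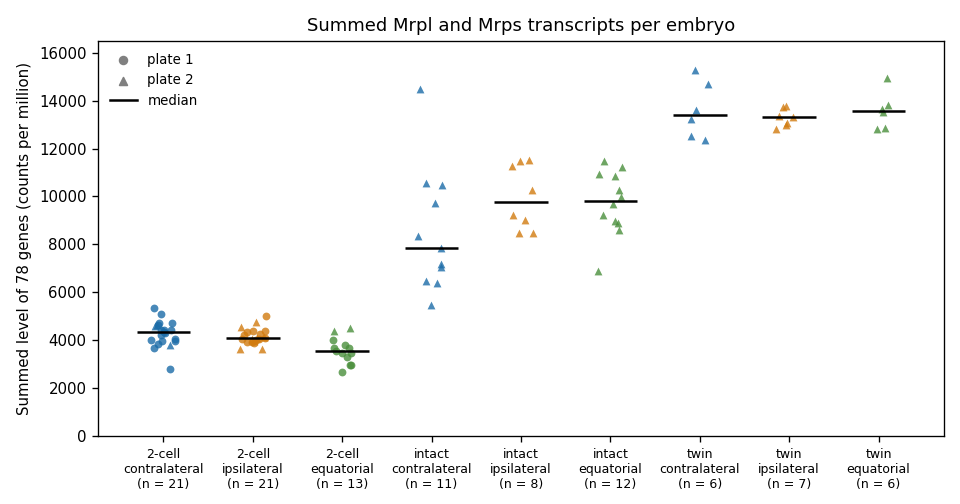
Summed CPM of the 78 genes (y axis, from 0) in each added 2-cell embryo, intact blastocyst and added twin pair, by ICSI site, with circles for plate 1, triangles for plate 2 and a line at each median. The 2-cell embryos lie between 2679 and 5350 CPM, the intact blastocysts between 5481 and 14484 CPM and the twins between 12349 and 15268 CPM.

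The first comparison asked whether the members differed by site of ICSI in whole 2-cell embryos. By the well names of the blastomeres, each site filled plate rows of its own. Position on the plate therefore cannot be told apart from site, and only plate was a term in the fit. Contralateral embryos had higher levels of 12 of 77 tested members than equatorial embryos and a lower level of 1, Mrpl45 (edgeR quasi-likelihood test with plate, adjusted p under 0.05 over all genes). The 12 are 15.6% of the members, beside 7.12% of all 13141 genes called higher, and the 1 is 1.3%, beside 6.06% called lower. The median log2 difference was 0.31 over the members and -0.00 over all genes, with 60 of the 77 above 0. Mrpl52 was not tested because its counts were too low. Fewer detected genes and a lower total in equatorial embryos moved with this comparison. With log total and detected genes as covariates 8 members were called, 7 of them among the 13. All 8 were higher (10.4%, beside 4.94% of all genes). With the 48 pairs whose mitochondrial share was at most 2% in both sisters, 5 were called, all higher (Mrps14, Mrps17, Mrps33, Mrpl53 and Mrpl42). These are 6.49%, beside 5.10% of all genes called higher. The 48 pairs kept 16 of 21 contralateral, 20 of 21 ipsilateral and 12 of 13 equatorial pairs.

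The calls are given by subunit and kind, and the difference between classes was not tested. Of the 30 tested large-subunit proteins with a bacterial counterpart, 0 were called in either direction, and their median log2 difference was 0.20. Of the 20 tested large-subunit proteins particular to mitochondria, 6 rose and 1 fell (median 0.37). Of the small subunit, 4 of 16 with a bacterial counterpart rose (median 0.44) and 1 of 10 particular to mitochondria rose (median 0.46). Mrps36 was the remaining call. In the small subunit, 24 of 26 differences were above 0, and in the large subunit 35 of 50.

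Mrpl53, a large-subunit protein particular to mitochondria, had the smallest adjusted p. It ran from 82.7 through a median of 147 to 229.5 CPM in contralateral embryos, from 65.2 through 128.4 to 194 CPM in ipsilateral embryos and from 31.8 through 82.7 to 162 CPM in equatorial embryos. The lowest contralateral embryo stood at the equatorial median and the ranges overlapped, and the log2 difference was 0.72 ± 0.15 (SE, adjusted p = 0.00071). On plate 2 the equatorial embryos stood at 85 and 162 CPM, around the 130 to 152 CPM of the contralateral ones.

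Mrps14, a small-subunit protein with a bacterial counterpart, was among the most abundant members. Its lowest, median and highest levels were 141, 281 and 463 CPM in contralateral, 195, 261 and 356 CPM in ipsilateral and 127.9, 192 and 363 CPM in equatorial embryos. The highest equatorial embryo lay above the contralateral median, and the log2 difference was 0.54 ± 0.12 (adjusted p = 0.00101). The same embryo was on plate 2, where the equatorial embryos stood at 245 and 363 CPM and the contralateral ones at 273 to 306 CPM. Mrps33, a small-subunit protein particular to mitochondria, had 125.1, 237 and 363 CPM against 95.2, 137 and 331 CPM in equatorial embryos, with 143, 180 and 380 CPM after ipsilateral ICSI. Its difference was 0.60 ± 0.15 (adjusted p = 0.00345), and on plate 2 both equatorial embryos (213 and 331 CPM) stood above the contralateral ones (179 to 198 CPM), so that the difference was seen on plate 1 and not on plate 2.

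Mrpl42, of the large subunit and particular to mitochondria, stood lower and varied more. Contralateral embryos ran from 22.3 through 82.4 to 164 CPM, ipsilateral from 35.8 through 61.1 to 127.1 CPM and equatorial from 2.05 through 39.8 to 77.2 CPM. The equatorial maximum lay below the contralateral median, and the log2 difference was 1.02 ± 0.25 (adjusted p = 0.00322). Mrpl42, Mrpl53, Mrps14 and Mrps33 were the 4 members called under each of the 10 alternatives run for this comparison.

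The remaining named members were called at larger adjusted p. Mrps36, the dehydrogenase subunit, was near the limit of detection, with 5.49, 13.9 and 58.8 CPM against 0, 5.17 and 18.1 CPM, and its difference of 1.56 ± 0.46 (adjusted p = 0.015) missed the threshold in the 48 pairs (adjusted p = 0.0573) and in all 62 pairs (adjusted p = 0.0637). Mrpl40 had 96.2, 179 and 249.1 CPM against 79.2, 134 and 230 CPM (0.41 ± 0.12, adjusted p = 0.0151), and the difference was 0.34 with depth covariates (adjusted p = 0.0976) and 0.38 in the 48 pairs (adjusted p = 0.0658). For Mrpl49 the levels were 15.3, 55.1 and 114.6 CPM against 10.4, 25.1 and 80.5 CPM (0.86 ± 0.27, adjusted p = 0.0224), with adjusted p = 0.0798 in the 48 pairs, 0.0794 in the 62 pairs and 0.0612 by the rank-sum test on TPM. For Mrpl50 they were 4.29, 43.5 and 165.4 CPM against 0, 20.7 and 50.8 CPM (1.13 ± 0.35, adjusted p = 0.023), with adjusted p = 0.104 in the 48 pairs. All 3 of these Mrpl genes belong to the large subunit and are particular to mitochondria.

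Mrps17 (0.79 ± 0.25), Mrps16 (0.63 ± 0.21), Mrps21 (0.54 ± 0.18) and Mrpl57 (0.50 ± 0.18) were also higher in contralateral embryos. All of these calls were lost with depth covariates, and those of Mrps16, Mrps21 and Mrpl57 also in the 48 pairs and by the rank-sum test on TPM. Without the plate term Mrpl57 was not called. Mrpl45, which lies at the exit of the peptide tunnel, was the exception in the other direction. It had 31, 80.7 and 178 CPM in contralateral, 77.5, 105.1 and 222 CPM in ipsilateral and 87.6, 135 and 206 CPM in equatorial embryos. The contralateral median lay below the lowest equatorial embryo, and the log2 difference was -0.53 ± 0.18 (adjusted p = 0.0376), a call that was lost with depth covariates and in the 48 pairs.

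**Figure D2:**
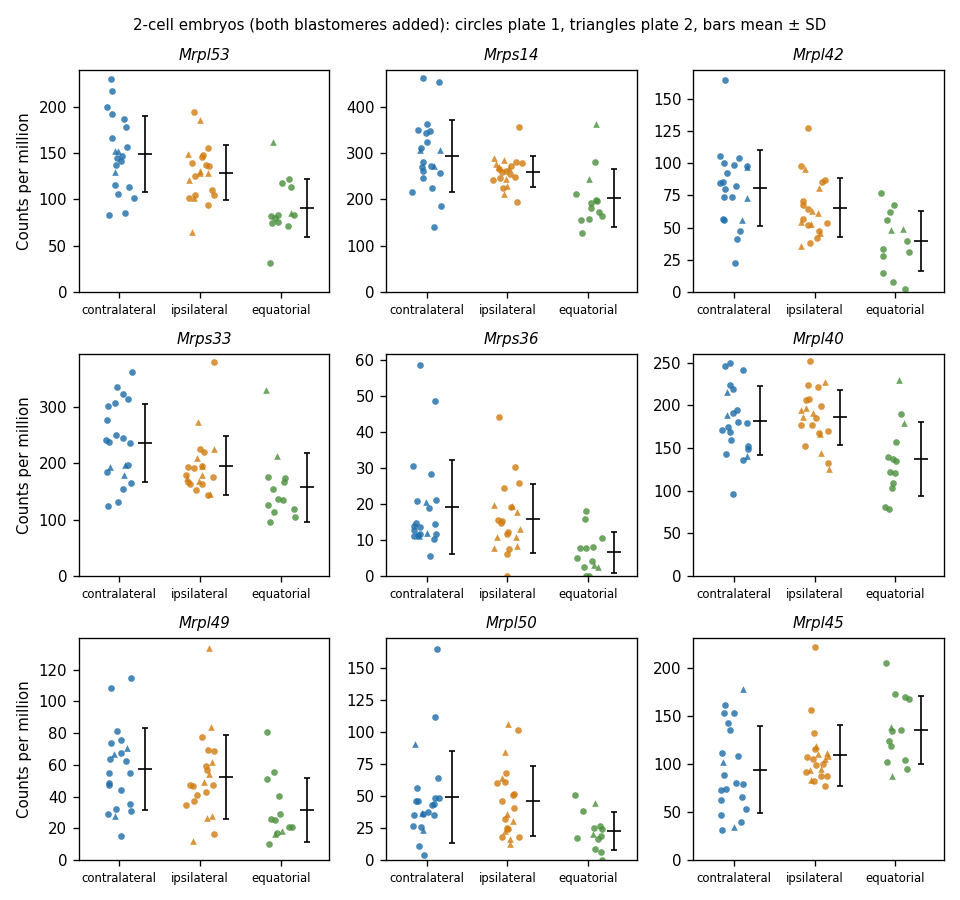
CPM (y axes, from 0) of 9 members in each added 2-cell embryo after contralateral, ipsilateral and equatorial ICSI, with circles for plate 1, triangles for plate 2 and bars for the mean ± SD of each group. The equatorial embryos lie lower in 8 of the panels with overlapping ranges, with medians of 82.7 CPM for Mrpl53 and 192 CPM for Mrps14, and higher for Mrpl45, at 135 CPM.

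Ipsilateral against equatorial embryos share the equatorial group with the comparison above, so their results are given side by side and not as a repeat. Of 77 members, 2 were higher (2.6%, beside 3.43% of all genes) and 0 were lower (beside 3.22%). At an unadjusted p under 0.05 there were 17 of 77 members, beside 2576 of 13141 genes. DESeq2 called 10 members higher and 0 lower, beside 715 and 589 of 13141 genes. Mrpl40 differed by 0.41 ± 0.12 (adjusted p = 0.0279), with ipsilateral levels of 125.4, 187 and 252 CPM, and Mrpl53 by 0.48 ± 0.15 (adjusted p = 0.043). Mrps36 differed by 1.41 ± 0.47 and missed the threshold (adjusted p = 0.0552). Both calls were lost with depth covariates (adjusted p = 0.293 for Mrpl40 and 0.168 for Mrpl53) and in the 48 pairs (0.0806 and 0.122), where 0 members were called. Depth covariates also removed most calls over all genes, from 451 higher and 423 lower to 51 and 0. In the 48 pairs 298 genes were higher and 294 lower. The median log2 difference of the members was 0.26 against 0.01 over all genes, with 58 of 77 above 0. With depth covariates it was 0.10 against -0.02, with 49 of 77 above 0. By median summed level the order of the sites was contralateral, ipsilateral and equatorial, with overlapping ranges. This held over all embryos and on plate 1, while on plate 2 both equatorial embryos lay above most ipsilateral ones.

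Contralateral and ipsilateral embryos were not told apart by the members. Between them, 0 members and 0% of all genes (0 of 13141) were called by edgeR, 3 members and 555 genes had an unadjusted p under 0.05, and DESeq2 called 0 members. With every gene with a count tested, edgeR called 1577 of 24964 genes and 0 members. The members' median log2 difference was 0.04. The smallest p-values belonged to Mrps33 (0.31 ± 0.13), Mrps14 (0.23 ± 0.11) and Mrps12 (0.66 ± 0.33), each with an adjusted p of 1 by edgeR. Mrps12, a small-subunit protein of the decoding centre, had 3.12, 34.5 and 83.8 CPM in contralateral, 0, 21 and 63.2 CPM in ipsilateral and 3.98, 17.5 and 60.7 CPM in equatorial embryos.

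The genes that these proteins work with were read from lists of the pathway. The mitochondrially encoded genes, the messages that the mitoribosome translates, were higher in contralateral than in equatorial embryos in 7 of 13 (mt-Atp8 by 1.03 ± 0.17, mt-Cytb by 0.60 ± 0.12 and mt-Atp6 by 0.50 ± 0.12 on the log2 scale) and lower in 0. Of 5 mitoribosomal proteins that carry other symbols, Ptcd3 was higher (0.63 ± 0.18). Of 24 tested assembly and rRNA modification factors, the transcription terminator family gene Mterf3 was higher (0.93 ± 0.27) and the GTPase Noa1 lower (-0.56 ± 0.20), and of 14 translation factors 0 were called. Of 11 mitochondrial aminoacyl-tRNA synthetases, Fars2 was higher (0.33 ± 0.09) and Lars2 lower (-0.53 ± 0.11). Of 80 ribosomal protein genes of the cytosol, 1 was higher and 7 lower, at a median of -0.06. Beside each of these lists, 7.12% of all genes were called higher and 6.06% lower. The mitochondrial share of counts averaged 1.64% in contralateral, 1.51% in ipsilateral and 1.30% in equatorial embryos, and its part in the differences of the members was not tested beyond the 48 pairs. The oocyte list had 1 gene higher and 1 lower of 6, and the cumulus list 0 of 2 tested.

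Sister blastomeres were then compared, since they divide a single zygote between them. Sisters lay in neighbouring wells, so position on the plate cannot be told apart from embryo. Sisters differed by less than blastomeres of different embryos for most members, in about the same share as for all genes. The median absolute log2 CPM difference of a member was 0.97 between the 55 sister pairs and 1.17 between 1272 pairs of blastomeres taken from different embryos of the same site and plate, and in 53 of 77 members (68.8%) the second was larger. The share was 69.8% over all 13141 genes and 68.6% over the 7541 genes within the members' central range of CPM. The summed level of all members differed by a median of 0.168 between sisters and 0.189 between non-sisters on the log2 scale, and by at most 0.658 and 1.13. By site the medians were 0.168 and 0.205 for contralateral, 0.110 and 0.151 for ipsilateral and 0.234 and 0.232 for equatorial embryos, so that equatorial sisters were no closer than non-sisters in the summed level.

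Members with small sister differences were abundant. The smallest median differences were those of Mrps14 (0.20, at a mean of 260 CPM), Mrps23 (0.23), Mrpl18 (0.29), Mrpl53 (0.33) and Mrps33 (0.33), and none of these had a sister at 0 in any pair. The largest were those of Mrpl58 (2.84), the former Ict1, a peptidyl-tRNA hydrolase that is also a ribosomal protein, Mrps5 (2.61), Mrps35 (2.35), Mrps22 (2.27) and Mrps10 (2.17). In Mrpl58, at a mean of 9.04 CPM, 28 of 55 pairs had 1 sister at 0 and 9 pairs had both. SMART-Seq counts carry no molecular identifiers, so that a difference between sisters at this level holds sampling of few molecules together with any difference of the cells.

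**Figure D3:**
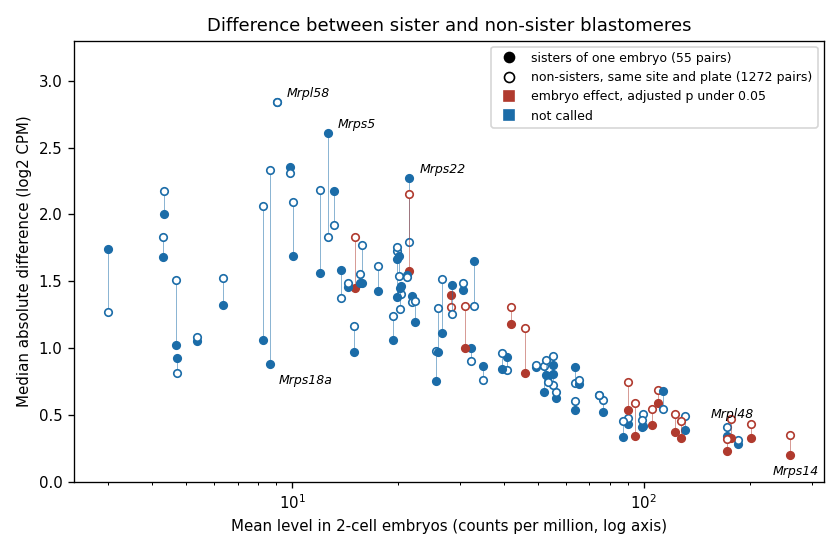
Median absolute log2 CPM difference (y axis) of each of 77 members against its mean level in 2-cell embryos (x axis, CPM, log axis), with filled points for sister pairs, open points for blastomeres of different embryos joined to them by a line, and red for members called for an embryo effect. Differences are small at high levels, as in Mrps14 (0.20 between sisters), and reach 2.84 in Mrpl58, where the filled and open points coincide.

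A test of whether embryos differed by more than their sisters called 16 of 78 members (20.5%), beside 18.4% of the 16322 genes tested (edgeR F test of embryo within site and plate). They were led by Mrpl48 (F = 3.14, adjusted p = 9.25e-05), Mrps14 (F = 2.79, adjusted p = 0.000504), Mrps26 (F = 2.73, adjusted p = 0.000607) and Mrps33 (F = 2.72, adjusted p = 0.000722). Mrpl53 (F = 2.53), Mrps30 (F = 2.46), Mrpl46 (F = 2.26) and Mrps6 (F = 2.21) followed. By subunit, 10 of 51 large-subunit and 6 of 26 small-subunit members were called. The count was 32 of 78 when every gene with a count was tested, beside 4999 of 24964 genes. For comparison, 34 of 80 cytosolic ribosomal protein genes and 11 of 13 mitochondrially encoded genes were called. Between twin blastocysts of 19 pairs, 1 member was called, Mrpl42 (F = 3.44, adjusted p = 0.0359), which is 1.28% of the members beside 3.2% of all genes. An unadjusted p under 0.05 was reached by 3 members, beside 1840 of 9773 genes.

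The size of the sister difference was also compared between sites. Of the members, 0 were called between contralateral and equatorial pairs (beside 0.266% of all genes in either direction, limma on the absolute difference) and 0 between ipsilateral and equatorial pairs (beside 0.236%). At an unadjusted p under 0.05 there were 12 and 13 of 77 members, beside 1340 and 1540 of 13141 genes. The median over members was 0.82 in contralateral, 0.93 in ipsilateral and 1.13 in equatorial pairs, over all genes 0.87, 0.85 and 0.92, and over the genes within the members' central range of CPM 0.95, 0.93 and 1.08. Mrps12 came nearest for contralateral pairs, whose sister difference changed by -2.11 ± 0.55 on the log2 scale, lower in contralateral pairs (adjusted p = 0.0652). On plate 1 alone it was -2.45 (adjusted p = 0.0476), the 1 member called there, beside 17 of 13141 genes. For ipsilateral pairs it was Mrpl22, whose product lines the exit tunnel, at -2.37 ± 0.64 (adjusted p = 0.0666). Mrpl42 (-1.07 ± 0.32 and -1.06 ± 0.33) and Mrpl40 (-0.49 ± 0.15 and -0.51 ± 0.15) had negative differences in both comparisons, which share the equatorial pairs.

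The next comparison set twin against intact blastocysts, that is, embryos from a single blastomere of the 2-cell stage against embryos that were never bisected. Added twin pairs had higher levels of 45 of 78 members (57.7%), beside 20.1% of the 10689 genes tested, and lower levels of 0, beside 20.6%. The median log2 difference was 0.48 over the members and 0.00 over all genes, and 74 members were above 0. Both subunits were represented in like parts, with 30 of 51 large-subunit members (median 0.45) and 15 of 26 small-subunit members (median 0.50). By kind, 17 of 30 and 13 of 21 rose in the large subunit, and 8 of 16 and 7 of 10 in the small subunit, in each case with a bacterial counterpart first and particular to mitochondria second. The median of the twins lay above that of the intact blastocysts in 74 members.

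The libraries of these groups differed in depth, which moves with this result. With a single twin in place of the added pair, 42 members (the first of each pair) or 40 (the second) were higher. These are 53.8% and 51.3%, beside 17.5% and 18.3% of all genes. With every library thinned to the lowest total 37 were higher (47.4%, beside 19.2%) and 0 lower (beside 22.3%). Without the 8 intact blastocysts under 11000 detected genes, 53 were higher (67.9%, beside 24.4%). In that setting 1, Mrps14, was lower (-0.24 ± 0.10), beside 23.7% of all genes. With log total and detected genes as covariates, a fit in which the groups do not overlap, 13 members were higher and 5 lower (Mrps36, Mrps27, Mrpl53, Mrpl30 and Mrpl54), and the median of all genes moved to -0.20, with 677 genes higher and 1190 lower. Of the 45 members, 30 were above 0 in that fit and 15 below, and 1 of the 15, Mrpl54, was among those called lower. In the added pairs, depth and detection cannot be told apart from bisection. Single twin libraries held 713410 to 2161062 counts, which overlapped the 234099 to 1254428 of intact blastocysts. Detected genes averaged 12466 ± 484 (SD) in single twins and 11426 ± 1276 in intact blastocysts. Depth covariates were not tested on single twins. Mrpl11, Mrpl12, Mrpl17, Mrpl18, Mrpl2, Mrpl37, Mrps12 and Mrps26 were called higher under each of the 8 alternatives run, the settings above included.

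Mrpl17, a large-subunit protein near the exit tunnel whose promoter is shown above, had the smallest adjusted p. Twin pairs ran from 301 through a median of 360 to 430 CPM and intact blastocysts from 55.3 through 163 to 302 CPM. The groups met only at their ends, and the log2 difference was 1.03 ± 0.12 (adjusted p = 1.16e-10). Mrpl2 had 181, 252 and 348 CPM in twins and 41.1, 122.1 and 192 CPM in intact blastocysts, with a difference of 0.98 ± 0.12 (adjusted p = 8.82e-10). Here too the overlap was at the ends of the ranges.

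Mrpl15 and Mrpl23, also with bacterial counterparts, differed by about the same amount. Mrpl15 had 155, 224 and 309 CPM against 30.8, 123 and 181 CPM (0.90 ± 0.12, adjusted p = 1.85e-08). Mrpl23, a protein of the tunnel exit, had 248, 287 and 349 CPM against 23.5, 150 and 259 CPM (0.90 ± 0.14, adjusted p = 5.09e-07). In both, every twin pair lay above the intact median. With depth covariates Mrpl15 was at 0.52 (adjusted p = 0.133) and Mrpl23 at -0.02 (adjusted p = 0.970).

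Mrpl18, high at every stage, rose by 0.63 ± 0.09 (adjusted p = 1.94e-07), from 153, 220.5 and 412 CPM in intact blastocysts to 313, 349.5 and 426 CPM in twins. Mrpl12, the stalk protein, rose by 0.53 ± 0.10 (adjusted p = 3.6e-05), from 156, 259 and 538 CPM to 314, 389 and 479 CPM, and its highest embryo was intact. Mrpl55 rose by 1.19 ± 0.20 (adjusted p = 1.41e-06), with 157, 208 and 281 CPM in twins against 0, 87.2 and 181 CPM, and stood at -0.32 with depth covariates (adjusted p = 0.597). Mrpl45, which was lower in contralateral 2-cell embryos, was higher in twins by 0.76 ± 0.14 (adjusted p = 1.3e-05), with 205, 257 and 294 CPM against 28, 152 and 377 CPM, and stood at 0.11 with depth covariates (adjusted p = 0.830).

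The 3 relatives of bacterial S18 gave unlike values, which were not tested against each other. Mrps18b, of the small subunit, had the largest difference of the members, 1.80 ± 0.35 (adjusted p = 4.13e-05). It stood at 78.5, 113 and 172 CPM in twins and 0, 26.8 and 116.6 CPM in intact blastocysts, 6 of which had no count. With depth covariates its value was -0.98 ± 0.79 (adjusted p = 0.414), in the opposite direction. Mrps18a, of the large subunit, had 141, 179 and 235 CPM against 41.7, 128.02 and 249.2 CPM (0.42 ± 0.14, adjusted p = 0.0131), and stood at 0.31 with depth covariates (adjusted p = 0.460). Mrps18c, the small-subunit protein in the position of bacterial S18, had 155, 222 and 276 CPM against 29.5, 199 and 325 CPM and did not pass the threshold (0.08 ± 0.13, adjusted p = 0.658). Of the exons of Mrps18b, 30.5% overlap an antisense transcript, and counting without strand cannot separate the reads.

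Other members named by position did not pass. Mrps30 differed by 0.35 ± 0.18 (adjusted p = 0.0990) and Mrps36 by 0.09 ± 0.21 (adjusted p = 0.774). With depth covariates both were called, Mrps30 higher (1.39 ± 0.30) and Mrps36 lower (-1.63 ± 0.39). The 4 members below 0 were Mrpl47 (-0.05 ± 0.16), Mrps14 (-0.13 ± 0.13), Mrpl35 (-0.14 ± 0.13) and Mrpl52 (-0.15 ± 0.14), none of which passed. Mrps34 had a large difference, 1.43 ± 0.36 (adjusted p = 0.000977), from 0, 19.5 and 68.3 CPM to 27.9, 59.1 and 90.5 CPM, but it stood at -1.19 with depth covariates (adjusted p = 0.357), and 77.8% of its exonic bases are shared with neighbouring genes.

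**Figure D4:**
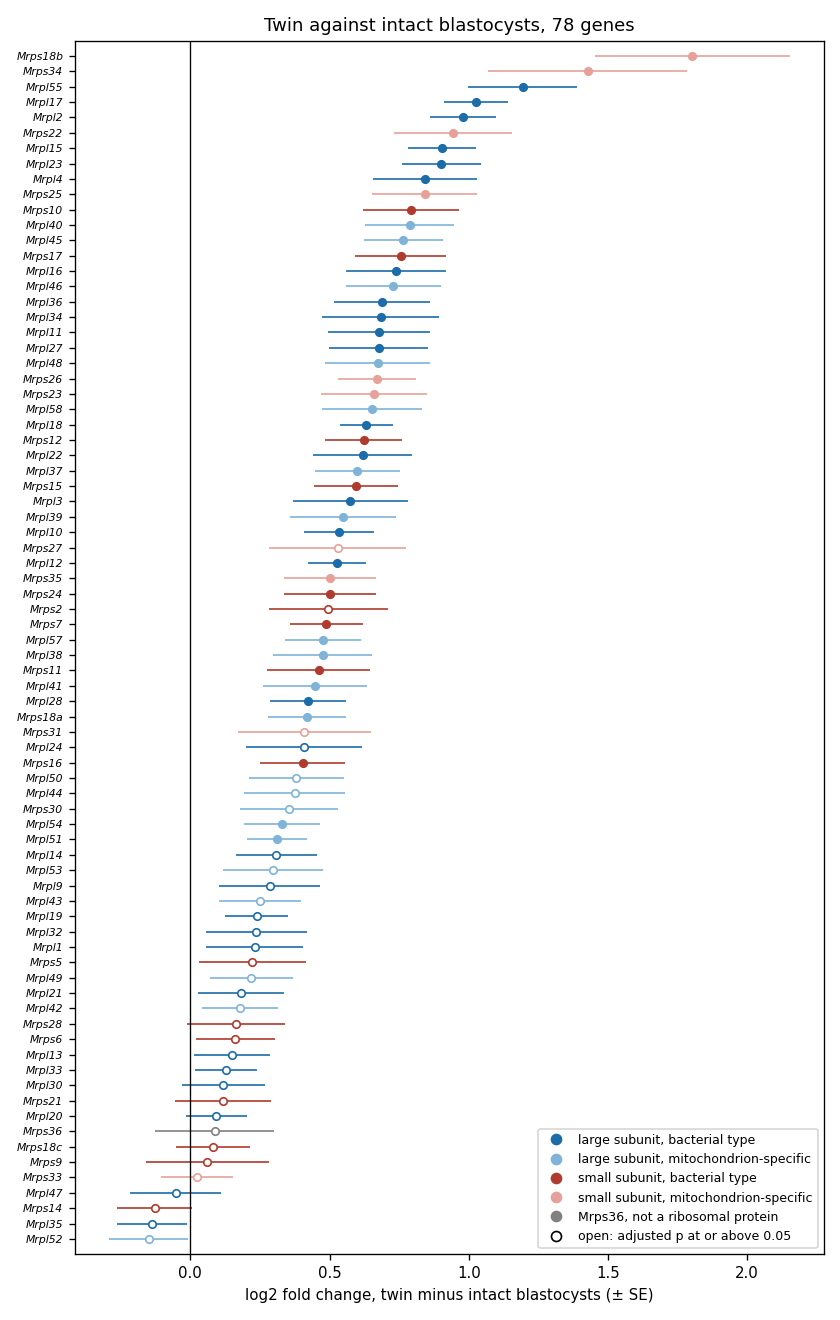
Log2 fold change of each of the 78 members between twin and intact blastocysts (x axis, twin minus intact, points with SE bars), coloured by subunit and kind, with open points where the adjusted p was at or above 0.05. The 45 filled points all lie to the right of 0, up to Mrps18b at 1.80 (-0.98 with depth covariates), and 4 open points lie to the left, down to Mrpl52 at -0.15.

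Genes around the mitoribosome were given the same test. Of 26 assembly and rRNA modification factors, 9 were higher in twins and 0 lower, led by the GTPase Mtg1 (1.47 ± 0.25), the small-subunit maturation factor Rbfa (1.57 ± 0.33) and Mpv17l2 (0.78 ± 0.18). Of 15 translation factors, 5 were higher, led by the insertase Oxa1l (0.77 ± 0.15), the elongation factor Gfm1 (0.54 ± 0.15) and the release factor family gene Mtrf1 (1.44 ± 0.42), and 0 were lower. Of 4 genes of mitochondrial transcription, Tefm was higher (1.35 ± 0.29), and of 5 mitoribosomal proteins with other symbols Aurkaip1 was higher (0.42 ± 0.12).

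The ribosomal proteins of the cytosol and the mitochondrially encoded messages ran against the members. Of 79 tested cytosolic ribosomal protein genes, 2 were higher in twins and 73 lower, at a median of -0.65, and their summed level was 37665 CPM in twins (31862 to 45471) and 54431 CPM in intact blastocysts (29580 to 98118). Of 13 mitochondrially encoded genes, 0 were higher and 6 lower, led by mt-Co3 (-0.69 ± 0.09), mt-Co2 (-0.66 ± 0.10) and mt-Nd3 (-0.77 ± 0.13). Markers of cell types also moved with the comparison. In the trophectoderm list Cdx2 was higher in twins (1.46 ± 0.16) and Tfap2c (-1.31 ± 0.14) and Gata3 (-0.65 ± 0.11) lower, in the epiblast list Nanog (0.73 ± 0.27) and Sox2 (0.81 ± 0.33) were higher, and in the primitive endoderm list 1 of 4 was higher, Gata6 (0.61 ± 0.19). The epiblast list summed to 68 to 158 CPM in twins and 2.61 to 152 CPM in intact blastocysts, and the primitive endoderm list to 281 to 481 CPM and 58.5 to 569 CPM. Of the oocyte list, only Dppa3 passed the filter, and it was higher in twins (2.89 ± 0.32). The part of these shifts in the members' difference was not tested.

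No member was called for the site of ICSI at the blastocyst stage. In twins 0 members and 0 genes were called for any pair of sites (edgeR). At an unadjusted p under 0.05 there were 0 members and 41 to 66 genes. Chance alone gives a share of about 0.05 of the 10689 genes tested, which is far more than 66. The test was therefore too conservative in twins to show whether site left a difference, and the reason was not tested. In intact blastocysts 0 members were called, beside 0.168% of all genes between contralateral and equatorial embryos (18 of 10689) and 2 genes between contralateral and ipsilateral embryos. At an unadjusted p under 0.05 there were 11, 5 and 6 of 78 members for contralateral against equatorial, ipsilateral against equatorial and contralateral against ipsilateral. Over all 10689 genes there were 1391, 855 and 1122 in the same order. Mrpl23 had the smallest p, with 23.5, 77.4 and 255 CPM in contralateral and 40.1, 185.5 and 259 CPM in equatorial intact blastocysts (-0.75 ± 0.21, adjusted p = 0.1). An interaction term for site and bisection called 0 members, with 1, 0 and 1 at an unadjusted p under 0.05 for the 3 pairs of sites. Over all genes 290, 220 and 362 were under that p, again fewer than a share of 0.05. The interaction term therefore cannot show whether the effect of site depended on bisection.

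From the 2-cell stage to the intact blastocyst most members rose relative to other transcripts. Of 78, 54 were higher in intact blastocysts (69.2%), beside 29.4% of the 15682 genes tested, 8 were lower (10.3%), beside 45.9%, and 16 were not called. The median log2 difference was 1.41 over the members and -0.54 over all genes. The scaling bears on these counts. With library size alone, without a factor for composition, the median of all genes was -0.26 and that of the members 1.68. In that setting 63 members were higher and 7 lower, beside 33.5% and 42.5% of all genes. Totals did not overlap between these groups, with a lowest of 1255481 in 2-cell embryos and a highest of 1254428 in intact blastocysts. With every library thinned to the lowest total, 56 of 77 members were higher and 7 lower, beside 37.4% and 43.7% of all genes. The intact blastocysts were all on plate 2. With 2-cell embryos of plate 2 only, 50 members were higher and 7 lower, beside 34.8% and 38.3% of all genes.

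The counts by subunit and kind are given without a test of the difference between them. Of large-subunit proteins with a bacterial counterpart, 22 of 30 rose and 2 fell (median 1.89), and of those particular to mitochondria 14 of 21 rose and 3 fell (median 0.99). Of small-subunit proteins the counts were 12 of 16 up and 1 down with a bacterial counterpart (median 1.62), and 5 of 10 up and 2 down among those particular to mitochondria (median 1.01). In 5 members the lowest intact blastocyst stood above the highest of the 55 2-cell embryos. The share of all genes separated in this way was not computed. The 5 members were Mrpl12, Mrpl19, Mrpl23, Mrpl33 and Mrpl52, all of the large subunit. That subunit holds 51 members and the small subunit 26, and the split of the 5 between subunits was not tested.

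Mrpl12 had 19.3, 65 and 104.7 CPM (lowest, median, highest) in 2-cell embryos and 156, 259 and 538 CPM in intact blastocysts, a log2 difference of 1.86 ± 0.18 (adjusted p = 1.53e-16). Mrpl19, nearly absent from 2-cell embryos, went from 0, 3.93 and 23.7 CPM to 51.3, 113 and 192 CPM (4.02 ± 0.40, adjusted p = 1.62e-15). Of the exonic bases of Mrpl19, 36% are shared with a gene on the other strand. Mrpl33, one of the smallest proteins of the large subunit, went from 0, 1.46 and 11.9 CPM to 55.5, 202 and 258 CPM (6.04 ± 0.63, adjusted p = 2.02e-14), and 17 of the 55 2-cell embryos had no count. All of these groups were fully separate.

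Mrpl23 went from 0, 7.32 and 23.2 CPM to 23.5, 150 and 259 CPM (5.28 ± 0.63, adjusted p = 4.48e-12), with 12 2-cell embryos at 0. Mrpl52 went from 0, 0 and 10.1 CPM to 53.9, 120.9 and 320.5 CPM, and since 41 of the 55 2-cell embryos had no count its fitted difference, 5.73 ± 0.82 (adjusted p = 2.13e-09), rests on few reads. Mrpl15 and Mrpl35 rose with some overlap of the groups. Mrpl15 had 3.3, 14.8 and 47.4 CPM against 30.8, 123 and 181 CPM (2.90 ± 0.30, adjusted p = 3.16e-15), and Mrpl35 0, 23.2 and 58.6 CPM against 47.3, 231 and 356 CPM (2.87 ± 0.32, adjusted p = 2.1e-13).

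Among the members that fell, Mrps23, of the small subunit and particular to mitochondria, had 96.6, 175 and 279 CPM in 2-cell embryos and 1.74, 80.6 and 125.6 CPM in intact blastocysts (-1.66 ± 0.18, adjusted p = 7.52e-14). Mrpl48 had 68.5, 167 and 359 CPM against 9.58, 67.4 and 155 CPM (-1.64 ± 0.20, adjusted p = 2.82e-12). The ranges overlapped in both, and the intact median lay below the lowest 2-cell embryo. The others were Mrpl3 (-1.57 ± 0.21), Mrps25 (-1.01 ± 0.21), Mrpl24 (-1.0 ± 0.24), Mrps30 (-0.99 ± 0.20), Mrpl40 (-0.86 ± 0.17) and Mrps14 (-0.33 ± 0.15, adjusted p = 0.0457). The call for Mrps14 was lost under each of the 7 alternatives for this comparison. Of the exonic bases of Mrps25 69.8%, and of Mrpl24 26.3%, are shared with a gene on the other strand.

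Twin blastocysts, which share the stage but not the history of intact ones, had medians of 117.7 CPM for Mrps23, 120 CPM for Mrpl48 and 94.7 CPM for Mrpl3, between the 2-cell medians of 175, 167 and 133 CPM and the intact medians of 80.6, 67.4 and 58.1 CPM. In 49 members the lowest twin pair stood above the highest 2-cell embryo, and the share of all genes that did so was not computed. Of the S18 relatives, Mrps18a (3.81 ± 0.69) and Mrps18c (3.59 ± 0.54) rose from medians of 5.74 and 10.6 CPM at the 2-cell stage to 128.02 and 199 CPM, while Mrps18b rose from 11.9 to 26.8 CPM (1.36 ± 0.54, adjusted p = 0.0196), a call that was lost with plate 2 only. Mrps36 rose by 3.11 ± 0.44, from a median of 12.3 to 94.9 CPM.

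**Figure D5:**
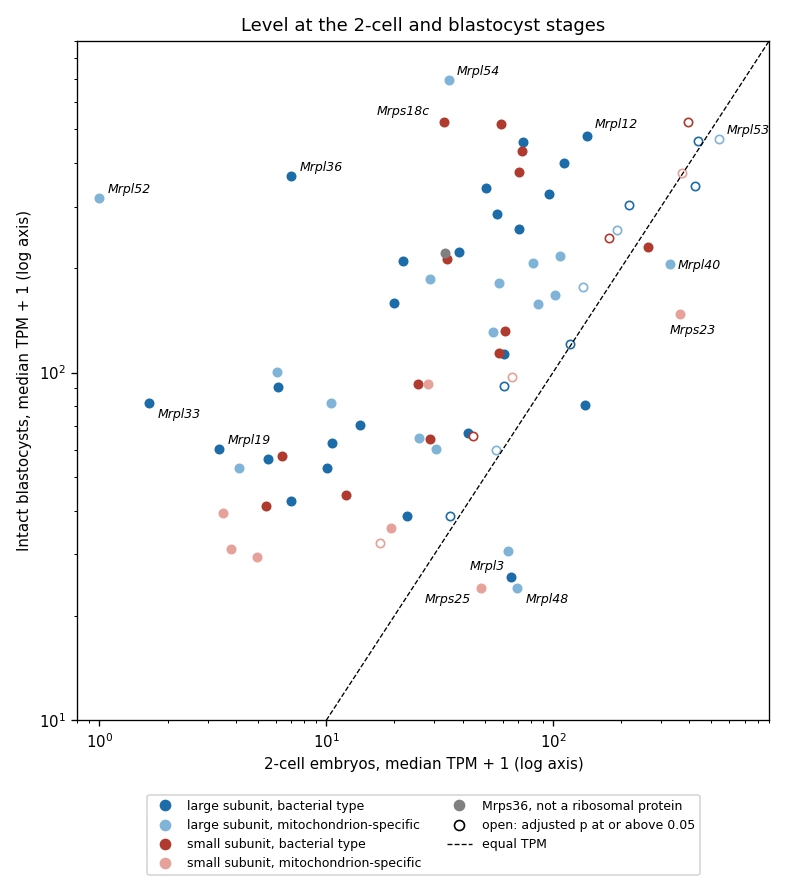
Median TPM + 1 of each of the 78 members in 2-cell embryos (x axis) against intact blastocysts (y axis), both on log axes, coloured by subunit and kind, with open points where the adjusted p of the stage test was at or above 0.05 and a dashed line of equal TPM. Mrpl52, Mrpl33 and Mrpl19 lie far above the line, with 2-cell medians of 0, 0.652 and 2.37 TPM, and Mrpl48, Mrpl3 and Mrps25 lie below it.

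The partners of the mitoribosome moved in both directions between the stages. Of all genes tested, 29.4% were higher in intact blastocysts and 45.9% lower. Of 80 cytosolic ribosomal protein genes 76 rose and 2 fell (median 2.34). Of the assembly factors 9 rose and 3 fell, among them the rRNA methyltransferase Nsun4 (-4.46 ± 0.22) and Noa1 (-2.14 ± 0.27) downwards and the methyltransferase Mrm2 (7.70 ± 1.03) upwards. Of the translation factors 8 rose, led by the elongation factor Tufm (7.41 ± 0.83), Slirp (3.19 ± 0.50) and Lrpprc (2.69 ± 0.46), and 1 fell, Gfm2 (-0.78 ± 0.21). Of 17 mitochondrial aminoacyl-tRNA synthetases 11 rose and 2 fell, Fars2 (-3.55 ± 0.23) and Lars2 (-0.52 ± 0.21). Tfam, which packages mitochondrial DNA, rose by 4.31 ± 0.63, and Tfb2m, an initiation factor of mitochondrial transcription, fell by 2.15 on the log2 scale. Chchd1 (2.42 ± 0.33) and Aurkaip1 (0.80 ± 0.23), small-subunit proteins with other symbols, rose. Of the 13 mitochondrially encoded genes 4 rose and 6 fell, close to the shares of all genes.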

How the data were processed

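RNA of single blastomeres and blastocysts was amplified with a SMART-Seq kit, without molecular identifiers or strand. The authors made the counts with STAR 2.7.10b in its plate mode on GRCm38 after Trimmomatic 039, per the labels and the study's methods. The counts were deposited per gene. The matrix named raw and the matrix named for exact deduplication were identical in all 4035625 blastomere and 2227665 blastocyst entries. Whether duplicate reads are collapsed in these counts was not tested. Pairs were kept with at least 9500 detected genes in both blastomeres (55 of 62 pairs, 7 blastomeres being under the minimum), and blastocysts with at least 4000. The study kept 55 pairs after its gene minimum and a limit on the mitochondrial share, and the minimum alone gave 55 pairs here. That limit was read as 2%, which leaves 48 pairs, so the 48 pairs are not the study's own set. They were used as an alternative only.

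Counts of sisters or twins were added. Groups were compared with edgeR 4.0.16 (quasi-likelihood test, TMM factors, expression filter, Benjamini-Hochberg adjustment over all genes, threshold 0.05), with plate as a term for 2-cell embryos and stage. Embryo effects used the edgeR F test without a fitted dispersion trend, and absolute sister differences limma 3.58.1 with a prior count of 1. The tests were tried on simulated counts first. Alternatives were DESeq2 1.42.0, other scaling and filters, depth covariates, thinning, single plates, other sets of pairs and single twins. TPM used exonic lengths of a GENCODE release earlier than the authors' one, known for 32235 genes. R 4.3.3, Python 3.11.15, pandas 2.3.3, NumPy 2.4.6 and matplotlib 3.10.9 were used. Totals and their ranges stand with the results, and they limit the precision for low members.

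The members, the pathway and marker lists were chosen with earlier results of these data known. Named in full were up to 8 called members of smallest adjusted p per comparison (3 of smallest p where fewer than 3 were called), the 5 highest and lowest by TPM, the 5 largest and smallest sister differences, members left untested, Mrps18a, Mrps18b, Mrps18c, Mrps30 and Mrps36, and up to 3 called genes per pathway list. The aminoacyl-tRNA synthetase list is not reported here for twin against intact blastocysts.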

Additional observations from a re-analysis of the deposited data

Results flagged for a closer look

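The summed level and named members were examined for outliers in groups of 4 to 10 blastocysts, the twin pairs of each site and the ipsilateral intact ones. The 11 contralateral and 12 equatorial intact blastocysts were not examined. Of 56 combinations of value and group, 7 held an embryo far from the others in a named member. Chance alone gives about 1 in 20 in a single such test. The same embryos recur across members, so the 7 cannot be weighed against that share. Among twin pairs, Mrpl12 was low in an equatorial pair (314.4 CPM, the nearest at 376.5 CPM), Mrpl15 was high in a contralateral pair (309.3 CPM, the nearest at 218.2 CPM) and Mrpl2 was low in an ipsilateral pair (180.5 CPM, the nearest at 246.0 CPM). Mrps18a was high in an ipsilateral twin pair (219.1 CPM, the nearest at 181.5 CPM) and Mrps36 in an equatorial one (145.2 CPM, the nearest at 107.1 CPM). Among ipsilateral intact blastocysts, Mrpl18 was high in 1 embryo (224.9 CPM, the nearest at 182.9 CPM) and Mrps36 low in 1 (48.8 CPM, the nearest at 94.9 CPM).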

How the results depend on the processing

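Of 55 counts of called members under an alternative, 43 stayed within 1.5 times the reported one and 12 did not. Between contralateral and equatorial embryos 13 members were called, 8 with depth covariates and 5 in the 48 pairs. Between ipsilateral and equatorial embryos 2 of 77 members were called, beside 451 of 13141 genes called higher. All members called in the other settings were higher too. DESeq2 called 10 of 77, beside 715 of 13141 genes called higher. With every gene with a count it was 6 of 78, beside 1542 of 24964. On plate 1 only it was 8 of 77, beside 637 of 12864. Depth covariates gave 0, beside 51 of 13141, and the 48 pairs 0, beside 298 of 13022. The 62 pairs gave 4 of 77, beside 600 of 13153. A rank-sum test of TPM gave 7 of 77, beside 593 of 13141. That test also moved the split of all genes between contralateral and equatorial embryos from 936 higher and 797 lower to 774 and 1205. The embryo effect gave 32 members in place of 16 with every gene with a count (beside 4999 of 24964 genes). The absolute sister difference between contralateral and equatorial pairs gave 1 in place of 0 on plate 1 only (beside 17 of 13141 genes). Twins against intact blastocysts gave 18 in place of 45 with depth covariates. In that fit Mrpl23 (-0.018) and Mrpl55 (-0.32) reversed among the members of smallest p. The causes were not tested. Of all 45 members called between twin and intact blastocysts, 15 were below 0 with depth covariates, and 1 of these, Mrpl54, was called lower. Over the members of smallest p in each comparison, 258 values kept direction and side of the threshold, 15 lost the call, 3 gained one and 2 reversed. Leaving out the 8 intact blastocysts with few detected genes was chosen after seeing the data. No paired analysis was possible because embryos of different groups share no replicate numbers in the labels. The low totals of intact blastocysts limit what can be seen in members near 0.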
